A study of Arabidopsis thaliana and Brassica oleracea with 14 samples.

Results

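Leaves of well-watered Brassica oleracea and Arabidopsis thaliana were compared on 8 macroarrays, 4 of each species, out of the 14 arrays of the series. The arrays were taken by their sample titles, as the control replicates 1 to 4 of each species. A macroarray is a membrane that carries spots of DNA and is probed with radioactive cDNA, here labelled with 33P from 10 µg of total RNA. The A. thaliana plants were of the accession Col-0 and the B. oleracea plants of line A12DH, a doubled haploid of the subspecies alboglabra. Both species were 4 weeks old, grew under a 16 h photoperiod and were watered throughout. The other 6 arrays, 3 of each species, measured plants left without water for 5 days. The labels describe RNA from leaves of 5 plants that was pooled before labelling, and do not tie an array to a pool of its own, so a p-value here reflects array-to-array spread, which can be partly technical.

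Each membrane has 768 positions in 16 rows, A to P, and 48 columns. Adjacent columns were read as 1 probe spotted in duplicate, which gives 24 position pairs in each row, named here by their positions (A7/A8). The files leave the column for spot names blank, so no pair is tied to a gene, and the leaf identity of the RNA could not be checked on marker genes. The labels speak of 522 spotted features. If a feature is a spot, that number would make 261 pairs, so some of the position pairs may hold no probe.

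The series title names the PP2C genes. Clade A protein phosphatases of type 2C bind abscisic acid receptors and, without the hormone, hold back the SnRK2 kinases that close stomata and switch on drought genes. A. thaliana and B. oleracea are relatives within the Brassicaceae, and the genome of the Brassica lineage was multiplied after the lineages split, so that a single Arabidopsis gene often has several Brassica counterparts. Sequence differences weaken the binding of cDNA to a probe from another species, and cDNA of several gene copies can bind the same probe. A difference between the species is therefore a difference of hybridization signal and not of transcript level, and fewer transcripts and weaker binding cannot be told apart. Which species each probe came from is not stated in the labels or files used.

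The image itself differed between the species. The median local background lay between 2202 and 2465 imager units on the A. thaliana arrays and between 97.2 and 115 units on the B. oleracea arrays (exact permutation p = 0.0286, adjusted over 4 array measures 0.0571). All arrays of a species lay on the same side, so species and background level cannot be told apart among these arrays. A block of 96 pairs with little signal (even-lettered rows, columns 25 to 48) stood in for blank spots, and a pair counted as above this low block when its total minus background exceeded the block's 95th percentile. That limit was 35.0, 39.0, 59.3 and 45.9 units on A. thaliana controls 1 to 4 and 6.11, 6.92, 5.02 and 5.83 units on B. oleracea controls 1 to 4. In imager units, a signal of 10 to 30 thus passed the limit on a B. oleracea array but not on an A. thaliana array. The units of different arrays may not be on a common scale. The 95th percentile of the spots was 4.17, 4.35, 35.2 and 3.84 times the limit on A. thaliana controls 1 to 4. On B. oleracea controls 1 to 4 it was 10.0, 7.63, 5.40 and 2.45 times the limit. Of the 288 pairs outside the block, 40.3% ± 24.1 (SD, n = 4) were above it in A. thaliana, while for B. oleracea the share was 28.0% ± 7.73 (SD, n = 4) (exact permutation p = 0.457). A. thaliana control 3 stood apart, with 76.0% of pairs above the block against 25% to 32.6% on the other A. thaliana arrays. Without it the difference of the species in this share changed from -12.3 to -0.405 percentage points.

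The order of the probes from bright to dim was shared only in part, within a species as well as between species. Over the 288 pairs outside the low block, the Spearman correlation of total minus background lay between 0.319 and 0.612 among the 4 A. thaliana arrays, with a median of 0.397. Among the B. oleracea arrays it lay between 0.282 and 0.485, with a median of 0.395. Between the species the 16 array pairs gave 0.0862 to 0.416, with a median of 0.260. A. thaliana control 3 correlated at 0.319 to 0.416 with the B. oleracea arrays. Control 4 correlated with those arrays at 0.273 to 0.382, and controls 1 and 2 at 0.0862 to 0.248. With the other A. thaliana arrays control 3 correlated at 0.361 to 0.612. Duplicate spots on the same array also agreed only in part. Over all pairs their Spearman correlation was 0.228, 0.392, 0.796 and 0.418 on A. thaliana controls 1 to 4. On B. oleracea controls 1 to 4 it was 0.342, 0.410, 0.288 and 0.246. How far this limited the correlations between arrays was not tested. These values describe the arrays, and the probes on them are not independent.

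Between the species, 11 position pairs differed, which is 2.86% of all pairs on the membrane. Of these, 6 were brighter in B. oleracea (1.56% of all pairs) and 5 in A. thaliana (1.3%). Among the called pairs, the largest differences towards B. oleracea were at A7/A8 and M5/M6, and towards A. thaliana at K15/K16 and O21/O22. Each value is a log2 normalized signal, after background correction with an offset of 20 units and quantile normalization over the 8 arrays, and differences are B. oleracea minus A. thaliana. A pair was called at a Benjamini-Hochberg adjusted p under 0.05 over all pairs, by limma's moderated test. Without adjustment, 49 pairs had p under 0.05, 22 brighter in B. oleracea and 27 in A. thaliana.

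The calls rested on few arrays. Without B. oleracea control 4 limma called 0 pairs (43 at an unadjusted p under 0.05), and the 11 pairs kept their direction with limma adjusted p between 0.0521 and 0.0872. The count was 5 without A. thaliana control 2, 6 without control 4 and 22 without control 3. With cyclic loess limma called 0 pairs (33 at an unadjusted p under 0.05). With arrays scaled to a common median instead of quantile normalized limma called 14 pairs, 3 brighter in B. oleracea and 11 in A. thaliana.

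The background level separated the species completely, and the calls moved with its treatment. With no background subtraction limma called 23 pairs, 4 brighter in B. oleracea and 19 in A. thaliana, and only 3 of the 11 were among them, A7/A8, K15/K16 and H3/H4. The difference at M5/M6 was then 1.26 (limma adjusted p = 0.107), at G9/G10 0.89 (limma adjusted p = 0.101), at H21/H22 0.92 and at G15/G16 1.23 (limma adjusted p = 0.148 at both). Towards A. thaliana it was -0.26 at E29/E30 (limma adjusted p = 0.138), -0.20 at O21/O22 (limma adjusted p = 0.231) and -0.05 at H13/H14 (limma adjusted p = 0.567). At the pairs still called, it was 1.27 at A7/A8, -1.26 at K15/K16 and -0.69 at H3/H4. Plain subtraction called 16 pairs, all 11 among them.

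**Figure D1:**
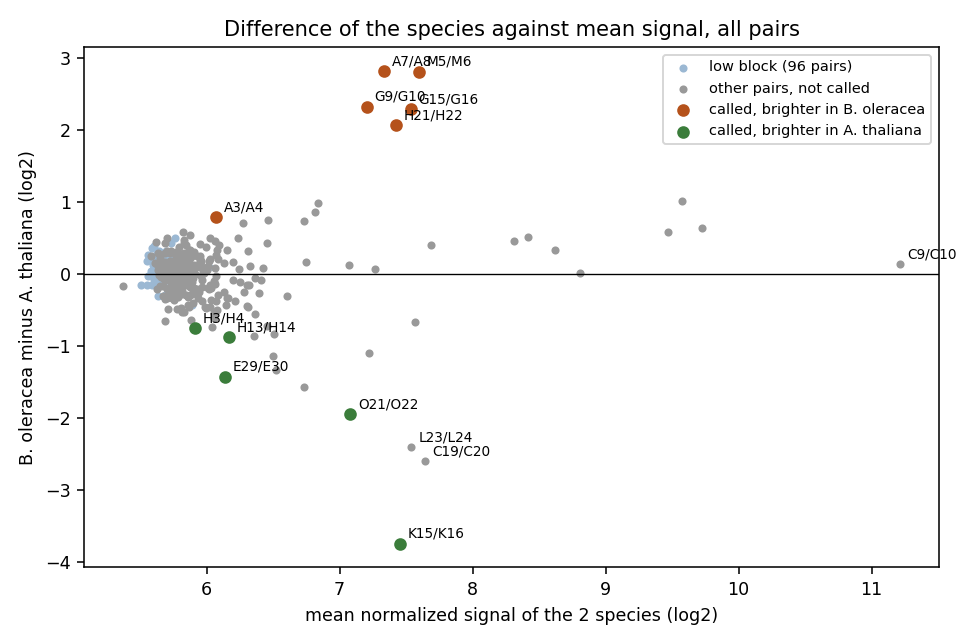
Difference between the species (B. oleracea minus A. thaliana, log2) against the mean normalized signal (log2) for each position pair. Most pairs lie between 5 and 7 on the horizontal axis and near 0 on the vertical one, the low block with them, while 5 pairs lie above 2 and K15/K16 lies at -3.75.

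In all 11 called pairs the 4 arrays of one species lay on one side of the 4 of the other. Among all pairs this was so at 31, or 8.07%, of which 18 (4.69%) had B. oleracea above and 13 (3.39%) A. thaliana. At the level of single spots the separation was complete in 10 of the 11, so that every one of the 8 spots of one species exceeded the 8 of the other. The exception was A3/A4. Over the whole membrane 11 pairs (2.86%) were separated in this way. With the first spot alone limma called 8 pairs, all among the 11. The calls of E29/E30, G15/G16 and H13/H14 ended there (limma adjusted p = 0.0790, 0.0520 and 0.0778). With the second spot alone it called 9 pairs, 8 of the 11 among them. The calls of A3/A4, H3/H4 and H13/H14 ended there (limma adjusted p = 0.278, 0.252 and 0.0882). The called pairs lay mostly in columns 1 to 24, which hold 10 of them and 192 of all pairs. E29/E30 was the called pair outside those columns, and 0 lay in the low block.

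**Figure D2:**
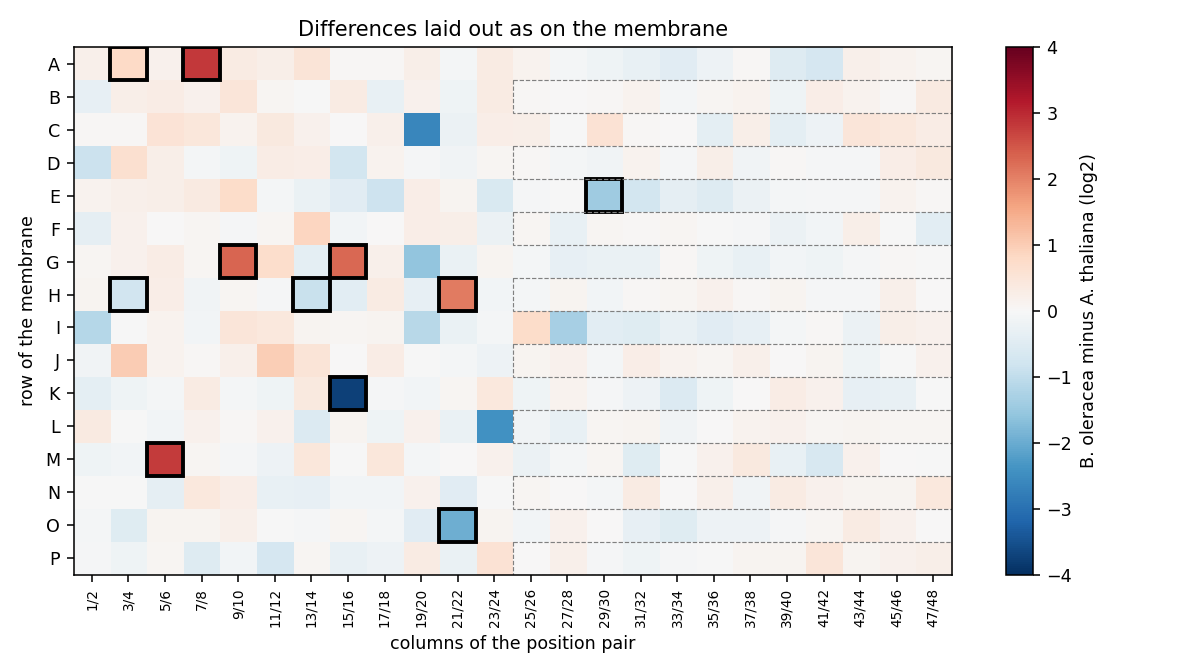
Differences (B. oleracea minus A. thaliana, log2) at each position pair, drawn in the rows and columns of the membrane. Black frames mark the 11 called pairs and dashed grey lines the low block. Called pairs are scattered over rows A, E, G, H, K, M and O, and 10 of them lie in columns 1 to 24.

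Towards B. oleracea, 5 pairs had differences above 2 log2 units. A7/A8 read 9.09, 7.23, 9.78 and 8.86 on B. oleracea controls 1 to 4 and 5.88, 5.85, 6.16 and 5.80 on A. thaliana controls 1 to 4. The lowest B. oleracea array was more than 1 log2 unit above the highest A. thaliana array, and in A. thaliana only control 3 was above the low block. The difference was 2.81 with an SE of 0.44 and a 95% interval of 1.83 to 3.80 (limma adjusted p = 0.0083).

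M5/M6 read 7.92, 8.39, 10.25 and 9.45 in B. oleracea and 5.94, 6.51, 6.39 and 5.95 in A. thaliana. Here too the groups were far apart, though 2 of the 4 A. thaliana arrays, controls 2 and 3, were above the low block. The difference was 2.81 with an SE of 0.44 and a 95% interval of 1.83 to 3.78 (limma adjusted p = 0.0083). In imager units M5/M6 gave 113, 131, 556 and 205 over background on the B. oleracea arrays, against 20.8, 86.6, 548 and 26.5 in A. thaliana.

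G9/G10 read 7.72, 7.72, 9.20 and 8.82 in B. oleracea and 5.66, 5.92, 6.47 and 6.11 in A. thaliana. All B. oleracea arrays were above the low block there, and in A. thaliana control 3 alone. The difference was 2.32 with an SE of 0.34 (limma adjusted p = 0.0083).

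G15/G16 and H21/H22 were above the low block on all 8 arrays. G15/G16 read 7.79, 7.62, 9.99 and 9.32 in B. oleracea and 6.50, 6.36, 6.51 and 6.20 in A. thaliana, which is 2.29 ± 0.47 (SE) higher (limma adjusted p = 0.0253). H21/H22 read 7.28, 8.03, 9.33 and 9.17 in B. oleracea and 6.35, 6.12, 6.58 and 6.51 in A. thaliana, which is 2.06 ± 0.40 (SE) higher (limma adjusted p = 0.0220). On the linear scale with the offset these are 4.88-fold and 4.18-fold, and folds on this scale understate the change of dim spots. Leaving out B. oleracea control 4, or any of A. thaliana controls 1, 2 and 4, ended both calls, at differences between 1.88 and 2.40. Both calls also ended with median scaling, and that of G15/G16 with an offset of 50 units, with the first spot alone and with all 14 arrays processed together.

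The level of these 5 pairs differed between the B. oleracea arrays. On control 3 their signals over background lay between 478 and 556 units, and they took ranks 2 to 7 of all pairs. On control 4 they lay between 165 and 205 units, at ranks 5 to 9. On control 1 the range was 63.4 to 355 units (ranks 8 to 19), where A7/A8 was the highest, and on control 2 it was 51.8 to 131 units (ranks 10 to 19). The normalized signals of M5/M6, G15/G16, G9/G10 and H21/H22 were higher on controls 3 and 4 than on controls 1 and 2, which did not hold for A7/A8, and their SDs were 0.76 to 1.16 log2 units. In A. thaliana the same 5 pairs ranked between 35 and 276.

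The sixth pair brighter in B. oleracea, A3/A4, was dim in both species. It read 6.54, 6.34, 6.69 and 6.28 in B. oleracea and 5.46, 5.59, 5.97 and 5.71 in A. thaliana, which is 0.78 ± 0.15 (SE) higher (limma adjusted p = 0.0223). Its signal was 23.1, 9.81, 15.8 and 6.34 units over background on the B. oleracea arrays, all above the low block there. These values were below the limits of 35.0 to 59.3 units on A. thaliana arrays, whose units may not be on the same scale. On A. thaliana controls 1, 2 and 4 the spots were darker than their surroundings, at -31.5, -9.38 and -7.78 units. With no background subtraction the direction turned, with a difference of -0.31 (limma adjusted p = 0.309). The call ended without any 1 of 6 arrays, and was kept without A. thaliana control 3 or B. oleracea control 2.

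**Figure D3:**
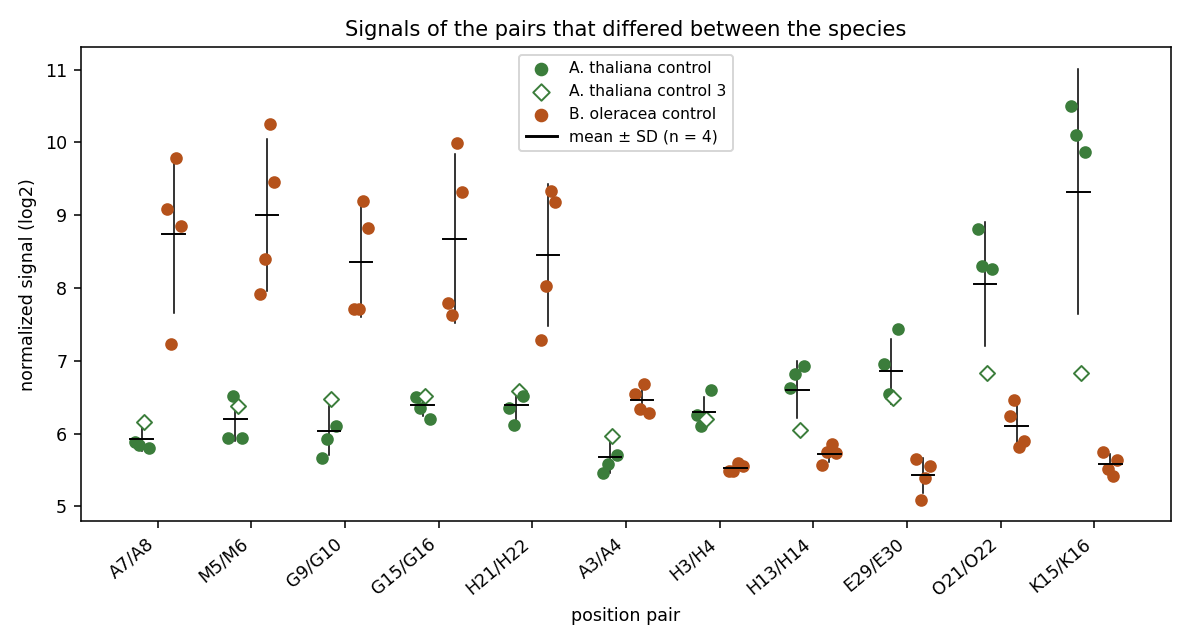
Normalized signals (log2) of the 11 called position pairs on each control array, with the mean and SD of each species (n = 4). Open diamonds mark A. thaliana control 3. At K15/K16 and O21/O22 that array reads 6.83, below the other A. thaliana arrays but above every B. oleracea array.

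Among the pairs brighter in A. thaliana, K15/K16 had the largest difference on the membrane. It read 10.50, 10.11, 6.83 and 9.87 on A. thaliana controls 1 to 4 and 5.74, 5.51, 5.42 and 5.63 on B. oleracea controls 1 to 4. On A. thaliana controls 1, 2 and 4 it ranked 2, 3 and 4 of all pairs, while on the B. oleracea arrays it ranked between 223 and 366 and was never above the low block. The fitted log2 difference was -3.75 with a 95% interval of -5.24 to -2.26 (limma adjusted p = 0.0179). Since B. oleracea was at the level of the low block, a bound on the difference of the means was also computed. It was 9.47-fold towards A. thaliana, or 3.24 on the log2 scale. This bound leaves out the spread between arrays, and the interval reaches differences smaller than the bound. The signal over background was 754, 756, 1142 and 813 units in A. thaliana and between -6.31 and 1.60 units in B. oleracea. Its call ended when control 4 of either species or A. thaliana control 2 was left out.

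O21/O22 read 8.82, 8.31, 6.83 and 8.27 in A. thaliana and 6.25, 6.46, 5.81 and 5.90 in B. oleracea. It was above the low block on all A. thaliana arrays and on B. oleracea controls 1 and 2, with signals over background that were low beside those of A. thaliana, at 13.0 and 14.1 units. The difference was -1.95 with an SE of 0.37 (limma adjusted p = 0.0206). Its call ended without A. thaliana control 2 or 4 and without B. oleracea control 3 or 4.

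E29/E30 read 6.96, 6.54, 6.48 and 7.44 in A. thaliana and 5.66, 5.09, 5.40 and 5.56 in B. oleracea. All B. oleracea spot pairs were at or below their local background, from -13.5 to -0.60 units. The bound on the difference of the means was therefore 1.71-fold towards A. thaliana (limma adjusted p = 0.0083). H13/H14 and H3/H4 were dimmer, and above the low block on none of the 4 B. oleracea arrays. In B. oleracea H3/H4 lay under its local background on all 4 arrays, and H13/H14 within 2.54 units of it on either side. H13/H14 read 6.62, 6.82, 6.05 and 6.93 in A. thaliana, with a bound of 1.44-fold above B. oleracea at 5.58, 5.74, 5.86 and 5.73 (limma adjusted p = 0.0382). H3/H4 read 6.25, 6.11, 6.20 and 6.60 in A. thaliana, with a bound of 1.16-fold above B. oleracea at 5.49, 5.49, 5.60 and 5.56 (limma adjusted p = 0.0179). Like that of K15/K16, these bounds leave out the spread between arrays. The 95% interval of the log2 difference was -1.93 to -0.93 at E29/E30, -1.31 to -0.45 at H13/H14 and -1.07 to -0.45 at H3/H4. H13/H14 was the least settled of the 11, called in 11 of 25 alternative settings. These include quantile normalization within each species, which does not scale the species to each other.

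A count of arrays above the low block lists several of the same pairs. Outside the low block, 6 pairs were above it on all 4 A. thaliana arrays and on 0 B. oleracea arrays, namely K15/K16, E29/E30, H13/H14, H3/H4, P7/P8 and P21/P22. The last of these had differences of -0.50 at P7/P8 (limma adjusted p = 0.175) and -0.26 at P21/P22 (limma adjusted p = 0.472). In the other direction, 0 of 288 pairs were above the block on all 4 B. oleracea arrays and on 0 A. thaliana arrays. A7/A8, G9/G10 and A3/A4 came nearest, with A. thaliana control 3 as the single A. thaliana array above it. These 6 pairs were listed after their values were seen.

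A. thaliana control 3 was brighter than the other A. thaliana arrays by very different amounts from pair to pair. The 95th percentile of its spots over background was 2088 units, 12.7 times the mean of the other 3 arrays. At M21/M22 it gave 27577 units against 300 to 314 on the others, 90.3 times their mean, and at C9/C10 the ratio was 66.5. At K15/K16 its 1142 units were 1.47 times the mean of the others, at H13/H14 the ratio was 2.17, at O21/O22 3.71, at E29/E30 4.91 and at H3/H4 5.86. All 5 pairs called brighter in A. thaliana thus rose less on control 3 than its 95th percentile did, and their ranks there were 29 to 112. The share of all pairs that rose less than the 95th percentile was not counted. The median signal over background of control 3 was 103 units against 9.94 to 17.5 on the others. At H21/H22 and G15/G16, called in the other direction, the ratios were 11.9 and 10.3, also below 12.7.

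Without control 3, limma called 22 pairs, the 11 above and 11 more. C19/C20 and L23/L24 led the additions. C19/C20 read 10.48, 9.55, 6.48 and 9.24 in A. thaliana and 6.14, 6.58, 6.38 and 6.25 in B. oleracea, where it was above the low block on all 4 arrays. Over the 8 arrays its difference was -2.60 ± 0.68 (SE; limma adjusted p = 0.0845), and without control 3 it was -3.20 ± 0.23 (SE; limma adjusted p = 8.51e-06). L23/L24 read 9.87, 9.36, 6.18 and 9.55 in A. thaliana and 6.45, 6.80, 6.17 and 5.90 in B. oleracea. Its difference was -2.41 over the 8 arrays (limma adjusted p = 0.114) and -3.08 without control 3 (limma adjusted p = 6.04e-06). At both pairs control 3 lay inside the range of the B. oleracea arrays, so the array left out was the one nearest to them. On the drought arrays L23/L24 was separated with B. oleracea above, as were 6.51% of all pairs. It read 6.76, 6.29 and 6.85 in A. thaliana and 7.18, 7.30 and 7.60 in B. oleracea. C19/C20 was separated there with A. thaliana above, as were 7.29% of all pairs. It read 7.86, 7.54 and 7.72 in A. thaliana and 6.77, 6.33 and 5.66 in B. oleracea.

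G19/G20 followed, at 8.20, 7.62, 6.08 and 8.17 in A. thaliana and 5.55, 5.69, 6.10 and 6.42 in B. oleracea, with -1.92 in place of -1.58 (limma adjusted p = 0.000541 without control 3 and 0.0908 with it). In the other direction F13/F14 joined, at 7.16, 7.14, 7.41 and 7.26 in B. oleracea and 6.22, 6.15, 7.06 and 6.08 in A. thaliana (limma adjusted p = 0.0014 without control 3 and 0.0705 with it). F13/F14 had no overlap between the species even with control 3. These 4 pairs are named after their values were seen. In K15/K16 the difference without control 3 was -4.22 with an SE of 0.16, against -3.75 with an SE of 0.67 with it.

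**Figure D4:**
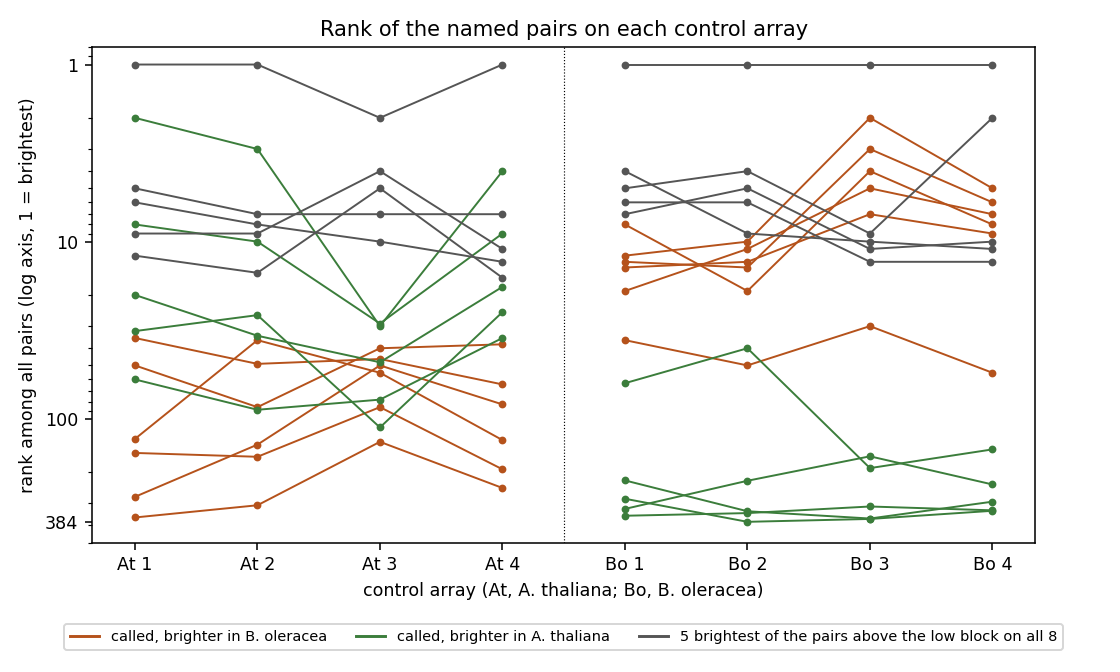
Rank of each named position pair among all pairs on each control array (log axis, 1 is the brightest); lines only join the points of a pair and the replicates have no order. C9/C10 ranks 1 or 2 on all 8 arrays, K15/K16 ranks 2 to 4 on A. thaliana controls 1, 2 and 4 and 30 on control 3, and 5 of the pairs brighter in B. oleracea rank 2 to 19 on the B. oleracea arrays.

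Most pairs above the low block on all 8 arrays did not pass the test between the species. Outside the low block, 17 of 288 pairs were above it on all 8 arrays. Of these 17, 2 were called (G15/G16 and H21/H22), a larger share than the 2.86% called over all pairs. The median difference of the 17 was 0.13 log2 units, against 0.03 over all pairs. C9/C10 had the highest mean of the 17, at 11.34, 11.34, 10.89 and 11.02 in A. thaliana and 11.34, 11.34, 11.09 and 11.34 in B. oleracea. Equal values of 11.34 arise because quantile normalization gives the brightest spots of each array the same value. The difference at C9/C10 was 0.13 with a 95% interval of -0.20 to 0.46 (limma adjusted p = 0.779), and this ceiling limits how large it could have been. Before normalization the pair gave 1509, 1647, 97522 and 1244 units over background in A. thaliana and 8032, 1477, 992 and 431 units in B. oleracea.

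P23/P24, M21/M22, A23/A24 and J13/J14 were the next brightest of the 17. P23/P24 read 9.55, 9.07, 8.94 and 9.13 in A. thaliana and 9.71, 9.87, 8.89 and 10.57 in B. oleracea, a difference of 0.58 with a 95% interval of -0.10 to 1.27 (limma adjusted p = 0.472). With no background subtraction P23/P24 was called, at 1.11 (limma adjusted p = 0.0316). M21/M22 had nearly equal means, 8.80 ± 0.76 for A. thaliana against 8.81 ± 0.58 for B. oleracea (SD, n = 4 each), with an interval of -0.86 to 0.87 (limma adjusted p = 0.996). The interval of A23/A24 was -0.42 to 1.09 (limma adjusted p = 0.747) and that of J13/J14 was -0.57 to 1.59 (limma adjusted p = 0.740). These intervals reach past 1 log2 unit. Among the 17 pairs, the interval lay within 1 log2 unit of 0 at 7, a smaller share than the 85.4% over all pairs.

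The authors' own normalized values have a reference that the numbers reveal. On each of the 14 arrays the normalized volume equals 100 times the volume divided by the mean volume of G21 and G22, with a largest deviation of 0.116% over the arrays. Of all position pairs searched, the next nearest, G31/G32, deviated by up to 96.6%. The deposited values are thus percentages of the pair G21/G22, whose gene is not named in the files. Its mean volume was 15.9, 11.0, 792 and 43.7 units on A. thaliana controls 1 to 4 and 3.66, 0.735, 3.01 and 1.66 units on B. oleracea controls 1 to 4. G21/G22 was above the low block on 1 of the 8 control arrays, A. thaliana control 3, so on the other 7 the divisor lay within the range of the low block.

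In the quantile-normalized values G21/G22 itself read 5.87, 5.65, 6.63 and 6.10 in A. thaliana and 5.81, 5.72, 5.92 and 5.79 in B. oleracea, so the difference was -0.25 ± 0.20 (SE; limma adjusted p = 0.678). Fitted on the authors' deposited values without further scaling, limma called 9 pairs, 7 brighter in B. oleracea and 2 in A. thaliana, and the median difference of all pairs was 0.54 log2 units. Relative to that median the 11 pairs all kept their direction, which is not an independent check because they were chosen on these same arrays. The difference at K15/K16 was -6.08 as fitted and -6.63 relative to the median. At A7/A8 it was 6.90 as fitted and 6.36 relative to the median. Each is on log2 values with a pseudocount of 20.

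**Figure D5:**
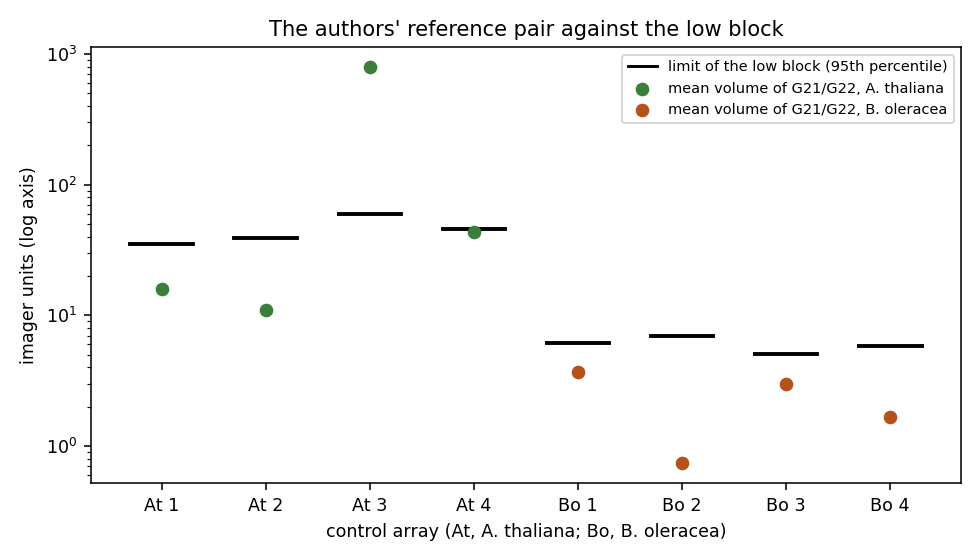
Mean volume of the pair G21/G22 (points) and the limit of the low block (black lines), both in imager units on a log axis, on each control array. The point lies above the line only on A. thaliana control 3, at 792 units against a limit of 59.3.

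The 6 drought arrays, processed on their own in the same way, show the called pairs on membranes that the comparison did not use. All 6 pairs brighter in B. oleracea had a higher mean in droughted B. oleracea than in droughted A. thaliana, and M5/M6 alone was separated, at 10.98, 13.10 and 8.44 against 7.16, 6.25 and 7.42. Separation of the 3 arrays of each species with B. oleracea above occurred at 6.51% of all pairs. Of the 5 pairs brighter in A. thaliana, 3 had a mean difference of the same sign and K15/K16 alone was separated, at 7.78, 7.22 and 7.76 in A. thaliana and 6.18, 6.59 and 6.65 in B. oleracea, against 7.29% of all pairs. O21/O22 and E29/E30 had means on the other side, at 6.86 in A. thaliana and 7.06 in B. oleracea for O21/O22, and 6.08 and 6.73 for E29/E30. Mean differences of both signs were common over the membrane. The share of all pairs with each sign was not counted, so the counts of same signs are description only. A. thaliana drought 2 has a deposited background of 0 at every spot, and its value at K15/K16, 7.22, was the lowest of its group.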

How the data were processed

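RNA was measured on 1-colour macroarrays. Per the file headers, the deposited array files give a total and a background intensity for each spot in imager units. The authors' volume intensity is their difference, with negative values set to 0, within 0.01 units. The deposited value table is that volume as a percentage of G21/G22 on the same array. The quantification software is not given in the sources used here. For this comparison the 8 control arrays were processed on their own. Total minus background was corrected with normexp (offset 20 units), put on the log2 scale, quantile normalized, and averaged over the spots of a pair. limma 3.58.1 in R 4.3.3 fitted the 2 species means, with Benjamini-Hochberg adjustment over all position pairs and a threshold of 0.05. Tested on simulated data with independent noise, the fit recovered most inserted differences, and the mean share of false calls was slightly above the nominal level. The simulation gave both species the same spread at a pair and held no outlying array, so its shares may not carry over to the called pairs. At K15/K16, for instance, the SD was 1.68 in A. thaliana and 0.14 in B. oleracea. The simulation was revised after early versions gave more false calls. For array measures, a 2-sided exact permutation test was run over the 70 ways to split the 8 arrays, with 0.0286 as the smallest p. The text names called pairs (up to 10 each way by smallest p, at least 5) and the 5 brightest of those above the low block on all 8 arrays. The low block, the members and the lists were chosen with earlier results of these data known. A bound for a dim group takes, on each array, the higher of the pair's own signal and the lowest signal above the low block. The number of arrays limits the precision. Same-numbered arrays did not pair (correlations of deviations between -0.0920 and 0.123). Alternatives covered background, offset, scaling, spots, filters, weights, a replicate block and each array left out.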

Additional observations from a re-analysis of the deposited data

Results flagged for a closer look

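In 40 groups of 4 arrays, 4 had an array set apart from the other 3 beyond Dixon's 95% critical value, where chance gives about 2. A. thaliana control 3 was set apart in the share of pairs above the low block, at 76.0% against 25% to 32.6%. It was also set apart in the median signal over background, at 103 units against 9.94 to 17.5 units. A. thaliana control 4 had a median background of 2465 units against 2202 to 2213 on the others. At C9/C10, B. oleracea control 3 read 11.09 while the other 3 arrays held the same value of 11.34, the highest that the normalization allows.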

How the results depend on the processing

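The count of 11 called pairs was 23 with no background subtraction (4 brighter in B. oleracea, 19 in A. thaliana, with 3 of the 11 among them), 0 with cyclic loess (33 at an unadjusted p under 0.05 by limma), 376 with quantile normalization within each species (all brighter in A. thaliana, with a median difference of -1.63), 17 among pairs above the low block on at least 4 arrays and 18 with array weights. Leaving out each array gave 0 to 22 calls. The cause of these changes was not tested. Among the 11 called pairs, 201 of 275 combinations with an alternative kept direction and call, 72 lost the call and 2 reversed. Both reversals were at A3/A4 (-0.31 with no background subtraction and -1.08 with quantile normalization within each species). Quantile normalization within each species does not scale the species to each other. Calls kept under it towards A. thaliana, which the 201 include, therefore say nothing about stability. Under this setting C9/C10 (-1.43), P23/P24 (-1.18), M21/M22 (-1.91), A23/A24 (-1.57) and J13/J14 (-1.58) also turned. Relative to the setting's median the 11 called pairs all kept their direction, on the same arrays that they were chosen on. The authors' values after quantile normalization, and plain subtraction, each gave 16 calls, 6 brighter in B. oleracea and 10 in A. thaliana. With the replicate block 11 pairs were called, 10 of them the same. H13/H14 lost its call. The same-numbered arrays share only a number. For the array measures, even complete separation gave an adjusted p of 0.0571, so their alternatives say nothing about stability. Leaving out each array, the difference lay between -17.4 and -0.405 percentage points for the share above the low block, -42.3 and -11.2 units for the median signal, -2189 and -2101 units for the background and -0.214 and -0.0242 for the agreement of duplicate spots. Signals under about 35 units could not be told from the low block on A. thaliana arrays.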
